A study of Rattus norvegicus with 4 samples.

Results

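The guanylate-binding proteins (GBP) and the immunity-related GTPases (IRG) are 2 families of large GTPases whose genes are induced by interferon. A fixed list of 9 genes was examined in rat liver, *Gbp1*, *Gbp2*, *Gbp4*, *Gbp5*, *Igtp*, *Irgm*, *Ifi47*, *RGD1309362*, and *MGC108823*, and each was taken by its gene symbol from the table of each library. Of these, 8 genes were measured (3 GBP and 5 IRG) among 16992 genes in all, and *Gbp1* was not analysed here. The list was chosen with the values of these libraries known, so their fold changes are given as a description without a test.

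Interferon-gamma binds its receptor at the cell surface, and the receptor kinases JAK1 and JAK2 start a signal that turns on genes such as the transcription factor IRF1. Genes induced by interferon-gamma often carry a palindromic DNA element called GAS, whereas IRF proteins and the type I interferon complex bind an element called ISRE. The induced GBP and IRG proteins gather on the membranes of vacuoles that contain pathogens, and the proteins that conjugate ATG8 to membranes help to direct them there. In the liver, the resident macrophages (Kupffer cells), lymphocytes, endothelial cells, and hepatocytes can all respond to interferon.

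Liver RNA from 4 male wild type Wistar rats was sequenced, 1 rat for each condition. The rats were bought at 6 weeks of age, kept for at least 1 week, and deprived of food and water before the experiment. They inhaled 4.5% sevoflurane or 6% desflurane through a nose cone while breathing spontaneously, either for 6 h or only until consciousness was lost, the latter being the control of the same agent. Both controls had therefore also inhaled an anesthetic, and no library came from a rat that had not. Since each condition is a single rat, differences between rats and differences between conditions cannot be told apart.

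The libraries corresponded to 4.47 to 5.40 Gb of aligned sequence, as estimated from the ratio of FPKM to coverage. Hepatocyte markers dominated every library, with a summed level of the 8 genes of that list (*Alb* and others) between 136514 and 153777 TPM (the abundance of a transcript scaled by its length and by the library). The sevoflurane control stood apart from the other libraries, since it contained transcripts of the exocrine pancreas. Without *Cela1*, the other 8 genes of the pancreatic acinar list summed to 37.8 TPM in this library and to between 0.196 and 0.738 TPM in the other 3. *Prss1*, *Prss3*, *Ctrb1*, and *Pnlip* were listed at 0 in these 3 libraries. Comparisons of the GTPases and of the gene lists with the sevoflurane control are therefore set beside those with the desflurane control.

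The genes lay in 4 places of the rn6 genome. *Gbp5* (chr2:248178441-248196865), *Gbp4* (chr2:248249470-248263104), and *Gbp2* (chr2:248276795-248293784) formed a cluster on the plus strand, with gaps of 52.6 kb and 13.7 kb between them. *Irgm* (chr10:34213889-34221827, minus strand) and *Ifi47* (chr10:34277993-34285623, plus strand) were 56.2 kb apart and pointed away from each other. *Igtp* (chr10:43631105-43639003, plus strand) had no other gene of the list near it on the same chromosome. In the RefSeq gene order of another build, GRCr8, *Igtpl1* and the IRG gene *Irgm2* lie close to it. *RGD1309362* (chr18:55483059-55508712) and *MGC108823* (chr18:55576239-55584961) followed each other on the plus strand with a gap of 67.5 kb. The coordinates span the whole gene, introns included, as given in the tables.

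The sequences upstream of these genes are shown because both interferon elements are defined by short motifs. Promoters of 300 bases were taken from RefSeq (GRCr8 build, not the rn6 build of the tables), and 6 of the 8 measured genes had an entry, all but *RGD1309362* and *MGC108823*. The last 120 bases before the annotated start are printed 5′ to 3′ on the strand of the gene. Capitals mark an ISRE-type match (GAAA, any 2 bases, and GAAA again, or its reverse complement) or a GAS-type match (TTC, any 3 bases, and GAA, which reads the same on both strands). The windows are chr2:234005607-234005726 (plus) for *Gbp2*, chr2:233978366-233978485 (plus) for *Gbp4*, chr2:233910879-233910998 (plus) for *Gbp5*, chr10:42874927-42875046 (plus) for *Igtp*, chr10:33742579-33742698 (minus) for *Irgm*, and chr10:33798624-33798743 (plus) for *Ifi47*.
Gbp2: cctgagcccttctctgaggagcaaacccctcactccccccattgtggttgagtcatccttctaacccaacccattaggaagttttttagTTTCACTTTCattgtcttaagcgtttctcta
Gbp4: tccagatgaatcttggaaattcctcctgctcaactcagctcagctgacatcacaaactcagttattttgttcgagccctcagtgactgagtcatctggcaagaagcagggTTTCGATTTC
Gbp5: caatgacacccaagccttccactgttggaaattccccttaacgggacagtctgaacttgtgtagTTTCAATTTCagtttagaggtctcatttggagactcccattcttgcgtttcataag
Igtp: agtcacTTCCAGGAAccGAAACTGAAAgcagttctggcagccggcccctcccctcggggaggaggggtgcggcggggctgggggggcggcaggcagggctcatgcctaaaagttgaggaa
Irgm: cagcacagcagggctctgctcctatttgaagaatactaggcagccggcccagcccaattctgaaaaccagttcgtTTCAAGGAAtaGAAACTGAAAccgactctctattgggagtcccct
Ifi47: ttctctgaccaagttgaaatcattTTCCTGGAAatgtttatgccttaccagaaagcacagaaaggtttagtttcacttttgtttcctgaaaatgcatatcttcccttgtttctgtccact

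An ISRE-type match was present in the 300 bases of 5 of the 6 genes (*Gbp2*, *Gbp4*, *Gbp5*, *Igtp*, and *Irgm*), compared with 3.92% of 33465 rat promoters of this length. GAS-type matches were present in 3 genes (*Igtp*, *Irgm*, and *Ifi47*), compared with 8.87% of all promoters. In the GBP genes, the ISRE-type match was on the opposite strand and began 31 bases (*Gbp2*), 10 bases (*Gbp4*), or 56 bases (*Gbp5*) before the start. *Igtp* and *Irgm* contained both motifs, with the GAS-type match first, 2 bases between them, and the same ISRE-type letters GAAACTGAAA. This arrangement was a GAS-type match, any 2 bases, and then GAAA, any 2 bases, and GAAA. The whole stretch was looked for on either strand, after these windows had been seen, and was found in 7 of the 33465 promoters. The 7 promoters belonged to *Igtp*, *Irgm*, the IRG gene *Irgm2*, *Ifgga2l2*, the interferon-induced *Parp14*, *Stra8*, and *LOC134480693*, a long non-coding RNA next to *Igtp* in the RefSeq gene order. *LOC134480693* is on the minus strand, and whether its match is the same site as that of *Igtp* was not determined. *Ifi47* had a further GAS-type match that began 212 bases before the start, outside the printed stretch. A match describes letters in a window, and binding was not measured here.

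In mice, IRGM-type proteins are regulators that sit on the membranes of the cell and hold the effector GTPases in an inactive state. The TPM value of *Irgm*, a gene of this type, was 56.4 in the sevoflurane control and 13.3 after 6 h of the agent, and it was 40.3 in the desflurane control and 20.9 after 6 h of desflurane. Each 6 h library was lower than either control. The value after sevoflurane was 4.25-fold lower than its respective control, and that after desflurane was 1.93-fold lower.

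*Igtp*, known in mice as *Irgm3* and the other regulator of the list, had TPM values of 107, 30.8, 51.6, and 28.8 in the same order of libraries. Its level after sevoflurane was 3.48-fold lower than the respective control, and its level after desflurane was 1.79-fold lower. The desflurane library was the lowest here, unlike in the other 7 genes, and the value after desflurane was 0.933 times that after sevoflurane. The control values of *Igtp* differed 2.08-fold, and its level after sevoflurane was 1.67-fold lower than the desflurane control.

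*Ifi47* encodes an effector GTPase of the IRG family. Its TPM values were 27.5, 6.87, 24.1, and 16.4, and the controls lay within 1.14-fold of each other, the closest pair of controls in the list. It was 3.99-fold lower after sevoflurane and 1.47-fold lower after desflurane than in the respective control. *Irgm* and *Ifi47* are neighbors, and their ratio was 2.05 in the sevoflurane control, 1.93 after sevoflurane, 1.67 in the desflurane control, and 1.27 after desflurane.

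*RGD1309362*, which RefSeq also lists as *Ifgga1*, was the most abundant of the 8 genes in 3 libraries, all but the one after sevoflurane, and showed the widest range. Its TPM value was 119 in the sevoflurane control, 3.39 after sevoflurane, 69.8 in the desflurane control, and 31.3 after desflurane. The sevoflurane library was the lowest, with a 35.2-fold difference from the respective control and a 20.6-fold difference from the desflurane control. Where both libraries of the sevoflurane comparison exceeded a TPM value of 2 (9251 genes), it ranked 1 from the lowest ratio, and it also ranked 1 of 9292 against the desflurane control. After desflurane it was 2.23-fold lower than the respective control and ranked 64 of 9412 genes. The average coverage of the gene was 5.74 after sevoflurane and 214 in its control, so reads covered it in both.

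*MGC108823*, the next gene on chromosome 18, had TPM values of 51.4, 5.72, 25.9, and 14.7. It was 8.98-fold lower after sevoflurane and 1.76-fold lower after desflurane than in the respective control, and the sevoflurane library was again the lowest. *RGD1309362* exceeded *MGC108823* in the sevoflurane control (2.32-fold), the desflurane control (2.69-fold), and after desflurane (2.13-fold). After sevoflurane the order was turned, with a ratio of 0.593. IRG genes are closely related copies, and how the reads that match several of them were divided cannot be seen in the tables, so their separate levels are uncertain.

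GBP proteins bind to the vacuoles of pathogens and to bacteria in the cytosol, and they promote inflammasome activation. *Gbp2*, the most abundant GBP gene in the 4 libraries, had TPM values of 30.1, 4.60, 14.7, and 9.25. *Gbp5* had TPM values of 11.8, 1.36, 4.85, and 3.60. In both genes, the sevoflurane library was the lowest and the sevoflurane control was the highest. After sevoflurane, *Gbp2* was 6.55-fold and *Gbp5* was 8.70-fold lower than the respective control, whereas after desflurane they were 1.59-fold and 1.35-fold lower. The average coverage of *Gbp5* after sevoflurane was only 2.30, and a transcript assembled by StringTie over part of the gene was at 2.37 TPM there. The size of its fold with sevoflurane is therefore imprecise.

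*Gbp4* did not exceed a TPM value of 2 in any library, so it was not able to pass the limit used for calls. Its TPM values were 1.51, 0.420, 0.730, and 0.917, with an average coverage between 0.711 and 2.72. The library after desflurane was 1.26-fold higher than its respective control, the only member of the list with a higher value after an agent than in its respective control. At this coverage, the small differences of *Gbp4* are imprecise.

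**Figure D1:**
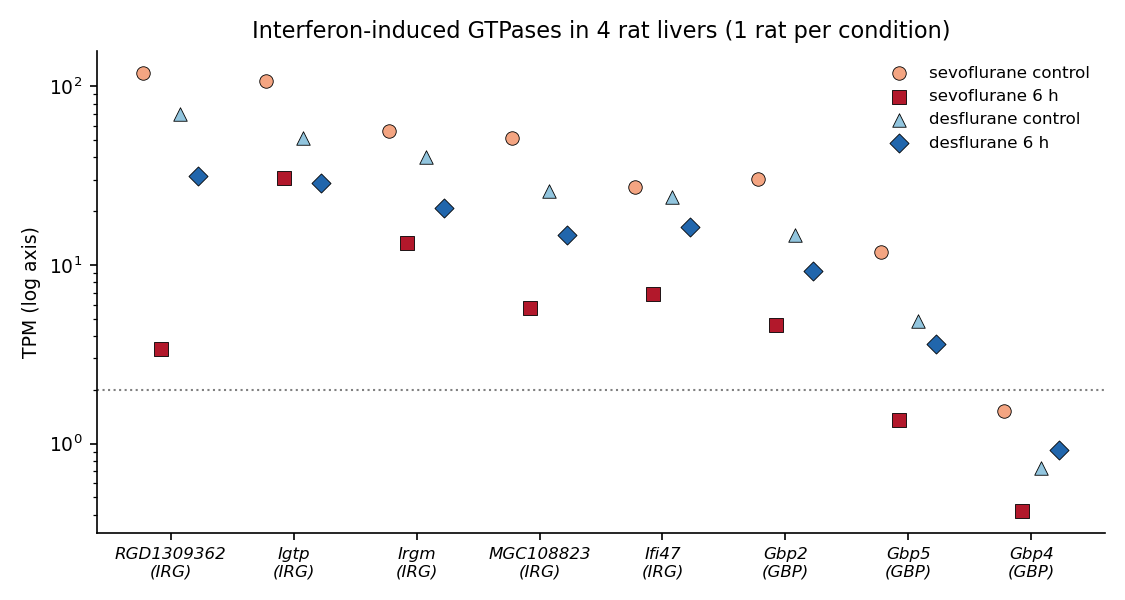
TPM values (log axis) of the 8 measured genes in the 4 libraries, with 1 point per library and the dotted line at the TPM limit of 2. The sevoflurane control is the highest point for every gene, and the library after 6 h of sevoflurane is the lowest for all but *Igtp*.

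A gene was called downregulated or upregulated where the larger of both TPM values exceeded 2 and the values were more than 2-fold apart. With sevoflurane, 7 of the 8 genes were downregulated compared with the respective control, all but *Gbp4*, beside 3.3% of 9754 genes called in this direction. The median log2 change, calculated from TPM values with 1 added, was -2.22 for the 8 genes and 0.05 for all genes. The 3 GBP genes had a median of -2.44, and the 5 IRG genes had a median of -2.01. The list was drawn from this contrast, so nothing is read from the count. With the desflurane control in place of the sevoflurane control, 6 genes were downregulated, all but *Gbp4* and *Igtp*, beside 2.59% of all genes. The median was then -1.51, compared with 0.06 for all genes. Apart from *Cela1*, the pancreatic transcripts were at or near 0 in both libraries of this second comparison.

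With desflurane, 1 of the 8 genes, *RGD1309362*, was downregulated compared with the respective control, beside 1.48% of 9855 genes, and 7 of the 8 values were lower. The median log2 change was -0.70 for the 8 genes and 0.11 for all genes. Median-of-ratios scaling moved the median of all genes by -0.13 in this comparison, and *Irgm* (2.12-fold) was then called in addition to *RGD1309362* (2.44-fold). Compared with the sevoflurane control, 6 genes were downregulated after desflurane, all but *Gbp4* and *Ifi47*, beside 1.58% of all genes, with a median of -1.54. The count after desflurane thus depended on the control, and the sevoflurane control is the library with pancreatic transcripts. Part of this distance already existed between the controls. *Gbp2*, *Gbp5*, and *Igtp* were lower in the desflurane control under the same rule, 3 of 8 genes beside 1.17% of all genes, and all 8 values were lower, with a median of -0.86.

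**Figure D2:**
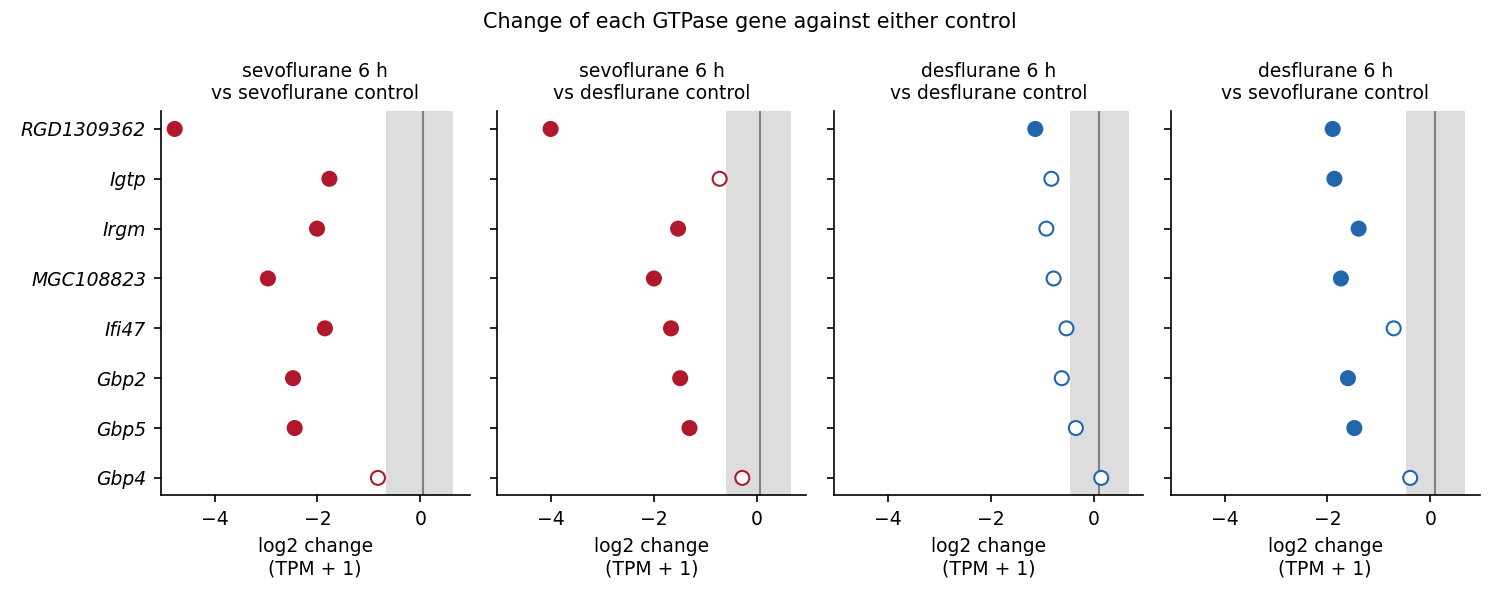
Log2 change (TPM with 1 added) of each gene, where filled points passed the call rule, the grey line is the median of all genes, and the grey band extends from their 5th to their 95th percentile. Against either control, 7 or 6 genes were called after sevoflurane, whereas 1 or 6 were called after desflurane.

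The anesthetized states were also compared directly, without either control. After desflurane, 5 genes were higher than after sevoflurane by the same rule (*Gbp2*, *Gbp5*, *Ifi47*, *RGD1309362*, and *MGC108823*), beside 2.76% of 9829 genes. The median log2 difference was 0.92, compared with 0.06 for all genes. *RGD1309362* differed 9.23-fold and accounted for the widest gap, while *Gbp5* (2.66-fold), *MGC108823* (2.57-fold), *Ifi47* (2.38-fold), and *Gbp2* (2.01-fold) followed. The difference of *Gbp2* was just beyond the limit, and *Irgm* (1.57-fold) was the nearest gene below it. The count was 4 with median-of-ratios scaling, 3 with 1 TPM added before the ratio, and 3 with FPKM, and the median was 0.55 with FPKM.

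The summed TPM value of the 8 genes was 405 in the sevoflurane control, 66.4 after sevoflurane, 232 in the desflurane control, and 126 after desflurane. The sums correspond to 0.0512%, 0.00829%, 0.0298%, and 0.0155% of the TPM of all annotated genes that were kept. The composition was similar in the controls and after desflurane, where *RGD1309362* contributed between 24.9% and 30.1% and *Igtp* between 22.2% and 26.5%. After sevoflurane, *RGD1309362* contributed 5.10% and *Igtp* contributed 46.4%. *Gbp2* kept a share between 6.35% and 7.43% in every library. TPM is scaled by transcript length, so these shares can be compared between genes.

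**Figure D3:**
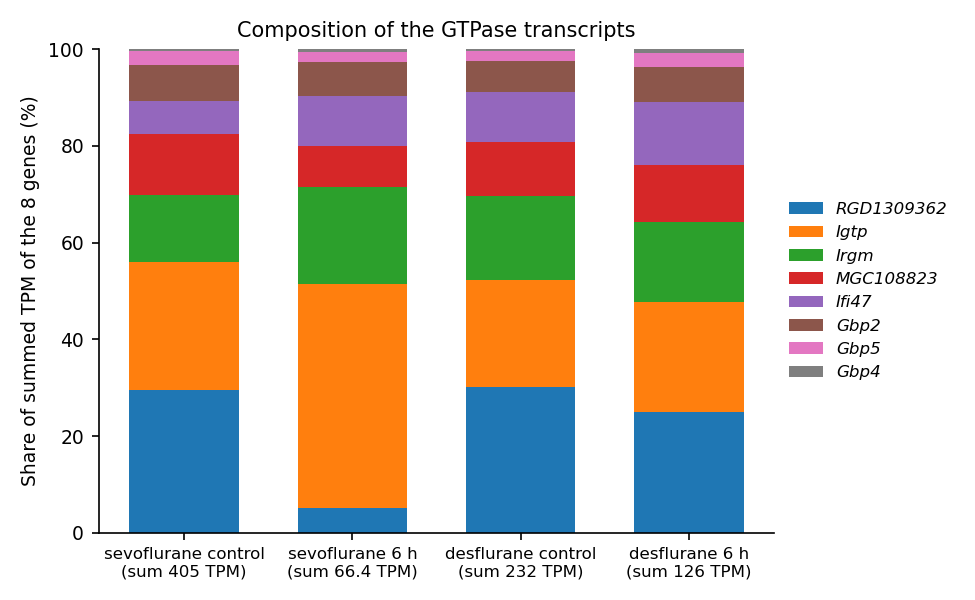
Share (%) of each gene in the summed TPM of the 8 genes, with 1 bar per library and the sum given under each bar. The share of *RGD1309362* is 5.10% after sevoflurane and at least 24.9% in the other libraries.

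Genes of the interferon pathway were compared with the GTPases by their roles. Beside the counts that follow, the share of all genes called lower against the respective control was 3.3% (sevoflurane) and 1.48% (desflurane). Against the other control it was 2.59% (sevoflurane) and 1.58% (desflurane). The medians of all genes were 0.05 and 0.11 against the respective control, and 0.06 and 0.10 against the other control. The ligand *Ifng*, which encodes interferon-gamma, had a TPM value of 0.438 in the sevoflurane control and was listed at 0 in the other 3 libraries. *Il18*, a cytokine that elicits interferon-gamma from lymphocytes, was 12.5, 5.92, 7.42, and 9.20. It was downregulated with sevoflurane, but it was not called against the desflurane control. *Il18* was also the only 1 of 9 measured ligand genes that the rule could call with sevoflurane, because the others did not exceed a TPM value of 2 in either library. None of the 8 measured receptors and kinases was called with either agent against the respective control. Their medians were -0.07 with sevoflurane and 0.29 with desflurane.

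Among 8 measured transcription factors of the pathway, *Irf1*, *Irf7*, and *Ciita* were downregulated with sevoflurane and *Irf1* with desflurane against the respective control. Against the other control, *Irf1* alone was called after sevoflurane, and *Irf1* and *Irf7* were called after desflurane. *Irf1* had TPM values of 23.8, 4.71, 19.1, and 8.65, so both 6 h libraries were lower than either control. Of 9 genes that restrain cytokine signaling, *Socs3*, *Cish*, and *Usp18* were downregulated with sevoflurane, and *Socs3* and *Cish* with desflurane. Against the other control, *Socs2*, *Socs3*, and *Cish* were called after sevoflurane, and *Cish* and *Usp18* after desflurane. *Cish*, which encodes a SOCS family protein, was 21.9, 3.63, 70.0, and 8.40.

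Among 18 other targets of interferon-gamma, 6 genes were downregulated with sevoflurane and 0 with desflurane against the respective control. The 6 genes encode the chemokine CXCL10, the immunoproteasome subunits PSMB8 and PSMB9, the peptide transporter TAP1, the checkpoint ligand CD274, and the class II invariant chain CD74. The 18 genes had medians of -0.71 (sevoflurane) and -0.29 (desflurane). Against the other control, 4 genes (median -0.57) were called after sevoflurane, without *Tap1* and *Cd74*, and 2 genes (median -0.36), *Cxcl10* and *Tap1*, were called after desflurane. Of 26 targets of type I interferon, 10 were downregulated with sevoflurane and 1 (*Isg15*) with desflurane against the respective control, with medians of -0.66 and -0.29. Against the other control, 6 were called after sevoflurane (median -0.43) and 5 after desflurane (median -0.55), so the gap between the agents depended on the control. *Isg15*, a ubiquitin-like modifier, had TPM values of 9.25, 6.30, 13.8, and 5.17.

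Large GTPases of other families differed from each other. The interferon-induced antiviral GTPases *Mx1* (15.1, 4.09, 9.28, and 6.38) and *Mx2* (29.1, 12.4, 29.3, and 9.38) were downregulated with sevoflurane, and *Mx2* was also downregulated with desflurane. Both genes were called in either 6 h library against the other control. *Atl2*, an atlastin that shapes the endoplasmic reticulum, was 62.9, 128, 62.7, and 104 and was upregulated with sevoflurane, beside 2.23% of all genes called in this direction. The median of the 13 measured genes of this list was 0.10 with sevoflurane and 0.17 with desflurane. Of 13 genes of the ATG8 conjugation machinery, 0 were called with sevoflurane and 1, *Map1lc3b*, was upregulated with desflurane, beside 2.79% of all genes, and 0 were called against the other control. Among 9 inflammasome genes, *Casp1* and *Nlrc4* were downregulated with sevoflurane, and *Il1b* was upregulated with desflurane, but none of the 9 was called against the other control.

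**Figure D4:**
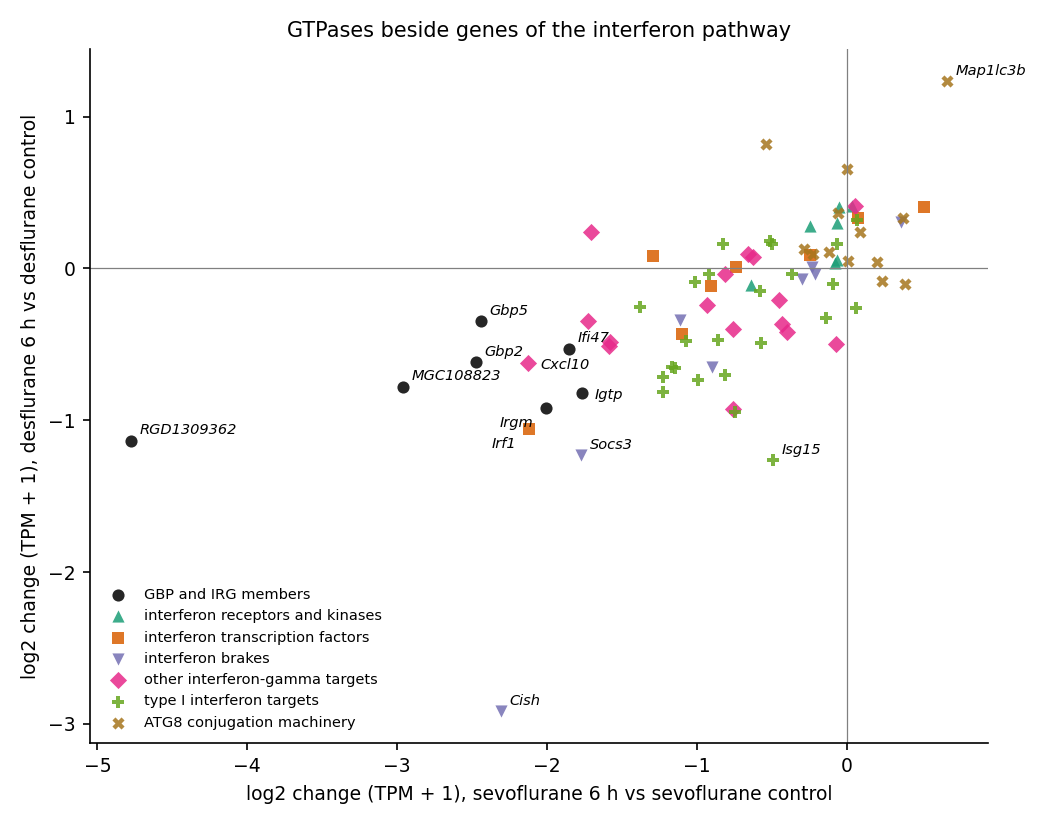
Log2 change (TPM with 1 added) of each gene with sevoflurane (x axis) and with desflurane (y axis) against the respective control, for genes with a TPM value higher than 2 in at least 1 library. The GTPases (black) lie to the left, with *RGD1309362* farthest, and *Cish* has the lowest value with desflurane.

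The genes whose pattern over the 4 libraries was nearest to the median pattern of the GTPases were searched among 9986 genes. Likeness was the Euclidean distance between log2 values (TPM with 1 added) centered on each gene's mean, so only 4 points define it. *Cxcl10* was nearest (0.200), followed by *LOC100910973* (0.348), *MGC105567* (0.373), *Irf1* (0.414), and *Hk3* (0.449). *Fcgr3a*, *Edar*, *Cxcl1*, *Cml2*, and *Mx1* followed with distances up to 0.539. Of the GTPases themselves, *Gbp2* was the closest to the median (0.126), and *RGD1309362* was the farthest (2.01).

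Within 250 kb of the 8 genes, 23 other annotated genes were listed, of which 13 had a TPM value higher than 2 in at least 1 library. Only *MGC105567* (chr18:55685613-55704910, plus strand), 100.7 kb from *MGC108823*, was called. It was not in the list examined here, and whether it belongs to the same families was not determined. Its TPM values were 7.87, 1.16, 6.00, and 2.82, and it was downregulated in each 6 h library against either control. *Mrpl22*, which encodes a mitochondrial ribosomal protein and lies 19.0 kb from *Igtp*, was 26.5, 31.2, 26.7, and 26.6. *Pdlim5*, beside the GBP cluster, was 43.8, 45.8, 43.3, and 47.3. Neither of these neighbors was low after sevoflurane.

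Fewer cells of a type and less RNA per cell cannot be told apart in whole liver. The sums of the leukocyte marker lists were lower after sevoflurane than in the respective control, the direction of the GTPases. Of the general leukocyte genes, *Cd52* was higher instead (0.342 TPM in the control and 0.946 after sevoflurane). The 8 general leukocyte genes summed to 119 TPM in the sevoflurane control, 57.8 after sevoflurane, 92.1 in the desflurane control, and 86.2 after desflurane, and 3 of them were downregulated with sevoflurane, including *Ptprc* (13.7, 4.11, 9.24, and 10.9). The 13 genes of Kupffer cells and macrophages summed to 904, 534, 710, and 808, with 5 called with sevoflurane and 0 with desflurane. The 15 genes of T and NK cells summed to 40.5, 25.9, 35.5, and 36.9 (5 and 0 called), and the 5 genes of B cells summed to 11.5, 6.06, 8.49, and 8.20 (1 and 0 called). With sevoflurane and desflurane, the rule could call only 6 and 4 of these T and NK genes and 2 and 1 of the B cell genes. Over all genes, 3.3% were called lower with sevoflurane and 1.48% with desflurane. The 4 dendritic cell genes summed to 6.83, 4.47, 4.51, and 6.79 (0 and 0 called). The 7 neutrophil genes summed to 2.94, 2.72, 4.17, and 1.31, all were too low for a call, and 2 were lower with sevoflurane. Against the desflurane control, the genes called after sevoflurane were 2 general leukocyte genes (*Ptprc* and *Rac2*), 2 macrophage genes (*Marco* and *Cd5l*), 1 gene of T and NK cells (*Cd8a*), and 0 genes of B cells or dendritic cells. The share over all genes was 2.59%, and the rule could call only 4 T and NK genes and 1 B cell gene there.

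The fold between the sums of the respective control and sevoflurane was 2.06 for leukocytes, 1.69 for macrophages, 1.56 for T and NK cells, and 1.90 for B cells, and it was 6.10 for the GTPases. Between the desflurane control and sevoflurane, it was 1.59, 1.33, 1.37, and 1.40 for the same lists, and 3.49 for the GTPases, which were chosen with these values known. With desflurane, the sum of the GTPases was 1.85-fold lower, while the fold of these 4 lists lay between 0.879 and 1.07. The fold with desflurane was 0.664 for dendritic cells and 3.19 for neutrophils, whose genes did not exceed the TPM limit of 2. *Cd4* (19.1, 18.3, 21.8, and 23.3 TPM) was the largest part of the T and NK sum. It was only 1.04-fold lower after sevoflurane than in the respective control, so the fold of this sum says little about the less abundant genes. Of these 15 genes, 13 were lower after sevoflurane than in the respective control. *Cd8a* (3.49-fold), *Lck* (3.53-fold), and *Nkg7* (4.28-fold) were lower by more than the sum. In the B cell list 4 of 5 were lower, with *Cd22* (1.44-fold) the largest part of the sum and *Cd79b* 9.63-fold lower. In both lists, the most abundant gene thus changed less than the sum. None of the markers of hepatocytes, endothelial cells, or stellate cells was called with either agent against the respective control. The pancreatic list was lower in the same direction as the GTPases with sevoflurane, with 8 of 9 genes called. The part of leukocyte content and of pancreatic tissue in the GTPase values was not tested.

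**Figure D5:**
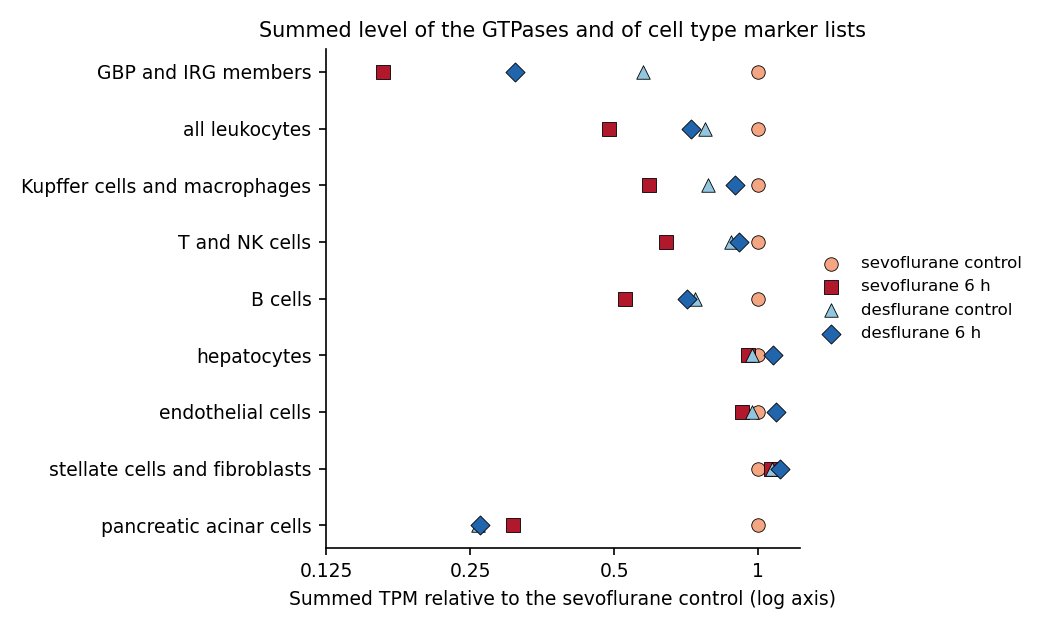
Summed TPM of the GTPases and of each marker list, divided by the sum in the sevoflurane control (log axis), with 1 point per library. After sevoflurane the GTPases are at 0.164, general leukocyte genes at 0.486, and hepatocyte genes at 0.953.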

How the data were processed

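Total RNA was prepared from 1 liver lobe (left lateral) of each of the 4 rats. The labels name the TruSeq Stranded Total RNA Gold kit, and the paper names another Illumina kit. The authors mapped trimmed reads to rn6 with HISAT2 and SAMtools, and StringTie was run with refGene annotation. The deposited tables give the coverage (signal), FPKM, and TPM of each row, as calculated by the authors with StringTie. In each table, rows assembled by StringTie accompany between 17915 and 17942 annotated rows and largely repeat them. The assembled rows alone sum to 1000000 TPM, and the annotated rows add 779824 to 813454 TPM to this. Read counts were not used here, and no counting intervals were calculated.

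Assembled rows and rows of 200 bp or shorter were removed, and TPM values were summed per gene symbol. Medians used log2(TPM + 1), which understates changes of low genes, over genes with TPM higher than 2 in at least 1 of the 2 libraries. The call rule was checked on simulated data. The members, gene lists, and rules were chosen with earlier results of these data known. Named genes were all members, the 3 most abundant genes of each list and those called against the respective control (a selection is printed), the 10 nearest patterns, and genes within 250 kb. *Ifng* was added after its values were seen, and 1 gene of the lists is not reported here. Promoters came from RefSeq (GRCr8), 250 bases before to 50 after the start, and the motif arrangement was added after they were seen. Alternatives were the TPM and fold limits, the pseudocount, scaling, FPKM, the length filter, the control, and leaving out *RGD1309362*. Python 3.11.15, numpy 2.4.6, pandas 2.3.3, and matplotlib 3.10.9 were used.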

Additional observations from a re-analysis of the deposited data

Results flagged for a closer look

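*Gbp4* moved in opposite directions with the agents. Its TPM value was 1.51 in the sevoflurane control against 0.420 at 6 h, and 0.730 in the desflurane control against 0.917 at 6 h. The difference between the 6 h library and the respective control was -1.09 TPM with sevoflurane and 0.187 TPM with desflurane. Whether the agents differ was not tested, because there was 1 library per condition, and no value exceeded the TPM limit of 2.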

How the results depend on the processing

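No alternative turned the direction of a median. The alternative counts were taken only in the direction of the reported count, so they could not show a turn. Of 50 alternatives for the counts, 40 stayed within 1.5 times the reported count, and of 38 for the medians, 28 stayed within 0.149, the median absolute log2 difference between the controls, which stood in for a replicate spread. The count with desflurane against its respective control (1) was 5 with a fold limit of 1.5, 0 with a fold limit of 3, 2 with median-of-ratios scaling, 2 with FPKM, and 6 against the mean of the controls. The count between the controls (3) was 5 and 0 with fold limits of 1.5 and 3. The count of genes higher after desflurane than after sevoflurane (5) was 1 with a fold limit of 3, 3 with 1 TPM added before the ratio, and 3 with FPKM. The median with sevoflurane against its respective control (-2.22) was -2.38 with a pseudocount of 0.1, -1.92 with FPKM, -2.44 without *Gbp4*, which was not above the TPM limit, -2.01 without *RGD1309362*, and -1.89 against the mean of the controls. The median with desflurane (-0.70) was -1.18 against the mean of the controls. The median after sevoflurane against the desflurane control (-1.51) was -1.71 with a pseudocount of 0.1 and -1.24 with FPKM. The median between the 6 h libraries (0.92) was 1.12 with a pseudocount of 0.1 and 0.55 with FPKM. The cause of these shifts was not tested. No paired analysis was possible because each condition had 1 library, and for the same reason no replicate could be left out.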

Other observations

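Transcripts assembled by StringTie were also present beside the annotated genes, and the following places were chosen after their values were seen. A row that began 6564 bases past the end of *Igtp* in the sevoflurane control (chr10:43645567-43655657, rn6, plus strand) was at 304 TPM in that library, at 196 after sevoflurane, at 224 in the desflurane control, and at 179 after desflurane. These values were higher than that of any of the 8 measured genes in the same library, and the fold between the respective control and the 6 h library was 1.55 with sevoflurane and 1.25 with desflurane. In the RefSeq gene order of GRCr8, the gene that follows *Igtp* is *Irgm2*, and whether the row is that gene was not determined, since the builds differ.

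Between *Gbp5* and *Gbp4*, the assembled row with the highest TPM had values of 31.4, 4.63, 14.0, and 10.2 in the same order of libraries, although the extent of the rows differed between libraries. The fold was 6.77 with sevoflurane and 1.37 with desflurane. *Gbp7* lies between these genes in the RefSeq order of GRCr8. Over *RGD1309362*, the assembled row was 124, 3.73, 80.6, and 39.9. Assembled rows largely repeat the annotated ones, so this row is no separate measure of the low value after sevoflurane.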
